A study of Mus musculus with 40 samples.

Results

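Expression of 9 interferon-stimulated genes was described in the gonadal white adipose tissue of 40 male mice: Irf7, Isg15, Usp18, Ifit1, Ifit2, Ifit3, Oasl2, Ifi44 and Rsad2. The members were taken from a list of names and matched to the bead array through the platform annotation. Of the 9 genes, 8 had a named probe, with 14 probes in all among the 25697 on the array. A probe was kept if it was brighter than background on 20 or more of the 40 arrays, and background was taken as the 95th percentile of 1305 probes for olfactory, vomeronasal and related receptor genes on the same array (78.1 to 94.3 intensity units). This left 13 probes of 7 genes among 14248 probes of 9797 genes. The Ifit1 probe was not above background on any array, lying between 55.2 and 86.3 units, and Ifi44 had no probe named in the annotation used here.

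The animals were C57BL/6J males of 9 weeks. Their dams were fed a diet low (LF) or high (HF) in fat from before mating to day 21 after birth, and the offspring were put on one of the same diets after weaning. The groups are named by the maternal diet and then the animal's own diet, LL, LH, HL and HH, with 10 animals in each and 1 array per animal. The animals came from 12 breeding cages, 6 per maternal diet, and 5 of the cages held animals on both post-weaning diets. Each cage held more than one dam, so that cage mates may be of different litters. Animals are numbered within a group in the order in which the samples are listed. The p-values measure the spread among these animals, and animals of one cage are not independent of each other. Gonadal fat of a male lies against the epididymis, and the pad holds adipocytes, macrophages, other immune cells, endothelium and mesothelium. In bulk tissue, fewer cells of a type and less RNA per cell cannot be told apart.

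Cells that sense viral nucleic acid secrete type I interferons, which bind the receptor chains Ifnar1 and Ifnar2. The kinases Jak1 and Tyk2 then activate Stat2, which joins Irf9 in a complex that binds the interferon-stimulated response element in the promoters of target genes. Irf7 is itself such a target and drives further interferon transcription. Isg15 is a ubiquitin-like protein that is conjugated to other proteins, and Usp18 removes it and dampens signalling at the receptor. The Ifit proteins bind viral RNA, Oasl2 belongs to the oligoadenylate synthetase family, and Rsad2 (viperin) is an antiviral enzyme of lipid droplets and the endoplasmic reticulum. In adipose tissue these genes are expressed by both adipocytes and immune cells.

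The promoter stretches that hold the letters of the response element are shown because they mark which members carry them close to the start of transcription. The letters searched were GAAANNGAAA on both strands of the 300 bases from 250 before to 50 after each start (RefSeq, build GRCm38.p6). Of 8 members with an entry, 4 held them, against 3.99% of 27025 genes. Usp18 had no entry. Isg15 held 3 overlapping matches, Ifit3 and Ifit1 held 2 each, and Rsad2 held 1. None was found in the windows of Irf7, Oasl2, Ifi44 or the 2 starts of Ifit2. The stretches run 5′ to 3′ on the strand of the gene, and capitals mark the matches, in Rsad2, Ifit3 and Ifit1 as the reverse complement.
Isg15, chr4:156200850-156200921, minus strand: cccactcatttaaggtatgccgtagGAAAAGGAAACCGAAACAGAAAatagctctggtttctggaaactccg
Rsad2, chr12:26456538-26456597, minus strand: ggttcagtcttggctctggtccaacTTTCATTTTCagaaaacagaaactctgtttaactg
Ifit3, chr19:34583348-34583441, plus strand: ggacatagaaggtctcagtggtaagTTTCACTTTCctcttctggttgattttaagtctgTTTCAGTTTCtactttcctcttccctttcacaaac
Ifit1, chr19:34640760-34640838, plus strand: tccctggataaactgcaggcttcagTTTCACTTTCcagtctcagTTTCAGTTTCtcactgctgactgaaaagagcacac
A match is a description of the letters and not a measured binding site.

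Before the groups were compared, the arrays were compared with each other. On 5 arrays, all of LF fed animals (LL animals 1 and 4, and HL animals 2, 6 and 8), the average correlation with the remaining arrays fell short of 0.926, against a median of 0.951. These arrays carried transcripts of the neighbouring organs: the geometric mean of the epididymis and seminal vesicle markers was 579 to 5432 units and that of the testis markers 609 to 9106, against group medians of 105 to 259 and 146 to 408. Such transcripts were not particular to these arrays, since the epididymis list reached 2416 units on an HH array and the testis list 1657 units on an LH array. Adipocyte markers were low there, at 793 to 1205 units against group medians of 2524 to 3000.4, and so were macrophage markers, at 437 to 874 units against 1122 to 1262. The geometric mean of the 7 members on these arrays was 267, 350, 286, 244 and 279 units, placing them 39th, 34th, 37th, 40th and 38th of the 40 animals. Differences between groups that rest on the LF fed animals are therefore given with and without these 5 arrays where they are described, and the part of the admixed tissue in them was not tested.

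Over the groups, the geometric mean of the 7 members ran from 267 to 514 units in LL (median 379), from 374 to 528 in LH (median 435), from 244 to 456 in HL (median 383) and from 363 to 693 in HH (median 408). The 4 ranges overlapped. The plot of each gene by animal shows the same overlap for every gene.

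**Figure D1:**
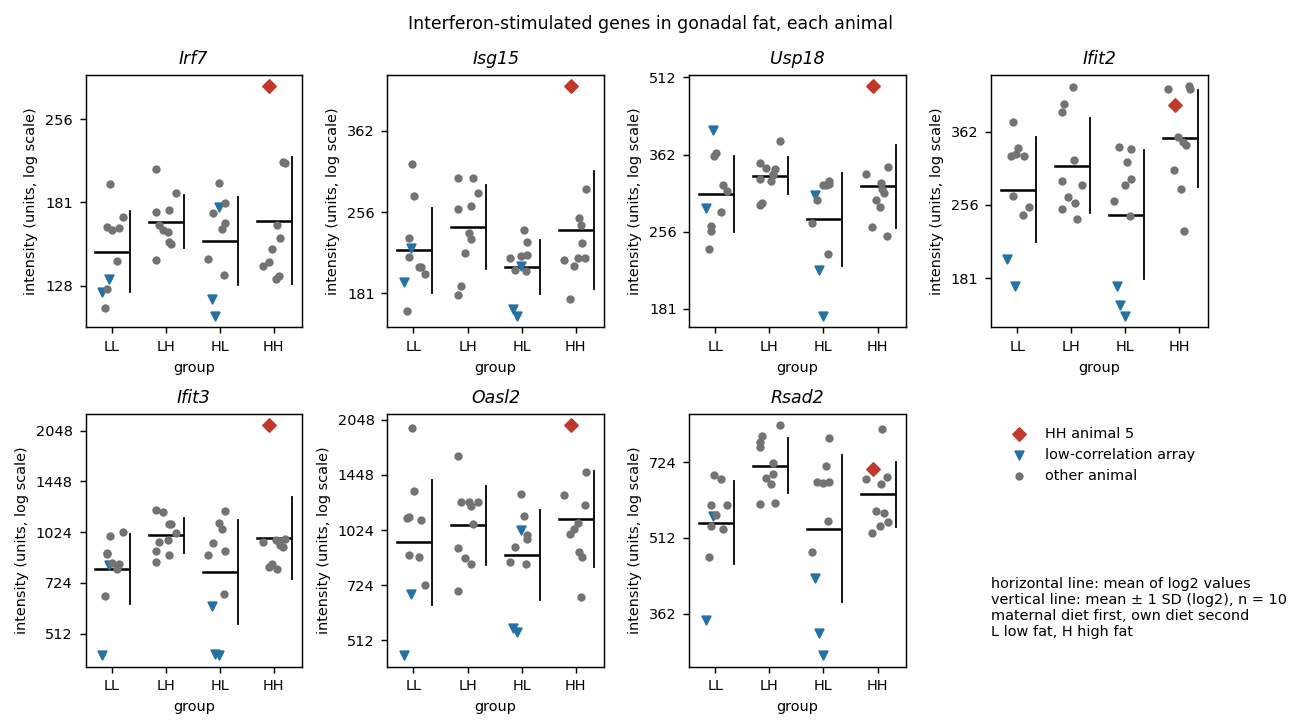
Intensity of the 7 measured interferon-stimulated genes (units, log scale) in each of 40 animals by group, 1 probe per gene, with the mean of the log2 values as a horizontal line and 1 SD to each side as a vertical line (n = 10). HH animal 5 (red diamond) was the highest of the 40 in 5 of the 7 genes, and the 5 low-correlation arrays (blue triangles) lay mostly in the lower part of LL and HL, with LL animal 4 the highest of LL for Usp18.

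Irf7, the transcription factor of the list, had 1 probe. It read 116 to 195 units in LL (median 151), 142 to 208 in LH (163), 113 to 196 in HL (164) and 131 to 294 in HH (153). The group medians were close and the highest value in HH belonged to a single animal, HH animal 5. Isg15 read 168 to 314 units in LL (median 207), 180 to 296 in LH (247), 164 to 237 in HL (207) and 177 to 439 in HH (218). Here too the top of the HH range was HH animal 5, and the next HH animal was at 283 units. Usp18, the protease that removes Isg15, was measured by 3 probes that moved together across the 40 arrays (Pearson 0.80 to 0.90). Its brightest probe read 237 to 405 units in LL (median 296), 288 to 384 in LH (331), 175 to 322 in HL (299) and 252 to 493 in HH (307).

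Among the RNA-binding Ifit genes, the brighter Ifit2 probe read 175 to 379 units in LL (median 294), 239 to 447 in LH (284), 152 to 336 in HL (271) and 226 to 449 in HH (348). The second Ifit2 probe had a Pearson correlation of 0.76 with it. The brightest of 3 Ifit3 probes read 442 to 1026 units in LL (median 827), 835 to 1189 in LH (992), 443 to 1182 in HL (889.7) and 797 to 2124 in HH (947). By SD over all 10 animals, LH was the narrowest of these groups, at 0.17 on the log2 scale, against 0.35 in LL, 0.52 in HL and 0.41 in HH. The HH value includes HH animal 5 at 2124 units, with the other 9 HH animals at 797 to 978. The LL and HL values include low-correlation arrays, among them LL animal 1 at 442 units and HL animals 6 and 8 at 446 and 443. The Ifit3 probes followed each other closely (Pearson 0.89 to 0.96).

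By SD pooled over the groups, the brighter Oasl2 probe varied most among the member probes. This probe read 467 to 1946 units in LL (median 983), 697 to 1628 in LH (1128), 539 to 1282 in HL (944) and 674 to 1978 in HH (1052). Its pooled within-group SD of 0.45 on the log2 scale was at the 82.0 percentile of all tested probes. The brightest Usp18 probe, at 0.24, was at the 48.0 percentile. The other Oasl2 probe, at 0.33, was at the 67.2 percentile, below the Ifit3 probes at 0.35 to 0.38. In HL the brighter Oasl2 probe was not the most variable, with an SD of 0.41. The SD there was 0.52 for the brightest Ifit3 probe and 0.48 for Rsad2. Rsad2 read 353 to 684 units in LL (median 567), 598 to 856 in LH (703), 300 to 809 in HL (605) and 523 to 841 in HH (616). The lowest LH animal was above the LL median, and the LL and LH ranges still overlapped.

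The effect of the maternal diet was tested first, within animals on the same post-weaning diet. All tests were moderated linear models (limma) on log2 intensity, with Benjamini-Hochberg adjustment over the 14248 probes. In LF fed animals (HL against LL), 0 of 13 member probes passed an adjusted p of 0.05, as did 0% of all probes, and 0 member probes reached an unadjusted p under 0.05, against 1.08% of all. The members' median difference was -0.04 on the log2 scale, against -0.01 over all probes, and 3 of 13 were positive, against 43.7% of all. The estimates ran from -0.17 ± 0.18 (SE) for Ifit2 to 0.07 ± 0.11 for Irf7. The intervals were wide. For Ifit3, whose HL to LL ratio was 0.98, the 95% interval was 0.74 to 1.28. Without the 5 low-correlation arrays, 8 of 13 probes were positive (median 0.10), against 52.8% of all probes (median 0.01). The Ifit3 difference then turned from -0.03 to 0.14, and that of Rsad2 from -0.04 to 0.15 (adjusted p = 0.982 for both, limma).

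In HF fed animals (HH against LH), 0 of 13 member probes passed, beside 0% of all probes. At an unadjusted p under 0.05 there was 1 member probe, against 12.5% of all probes. It was Rsad2, which was lower in HH than in LH by a log2 difference of -0.19 ± 0.09 (ratio 0.88, 95% interval 0.772 to 0.995, adjusted p = 0.384, limma). The other 6 genes, each by its brightest probe, had differences between -0.07 and 0.19. Some of these depended on HH animal 5. Without it, Irf7 moved from 0.01 to -0.08, Oasl2 from 0.06 to -0.04 and Ifit3 from -0.02 to -0.15.

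The post-weaning diet was then compared among offspring of similarly fed dams. In offspring of LF fed dams (LH against LL), all 13 member probes had a positive difference, with a median of 0.18 on the log2 scale against 0.03 over all probes, and 57.2% of all probes were positive. None of the 13 passed the adjusted threshold, which 0.218% of all probes did. At an unadjusted p under 0.05 there were 6 member probes of 4 genes, beside 12.8% of all probes. The probes of a gene share its transcript and are not separate evidence.

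Rsad2 had the largest difference, at 0.38 ± 0.10 on the log2 scale (ratio 1.30, 95% interval 1.12 to 1.51, adjusted p = 0.149, limma). The dimmer Ifit2 probe followed at 0.34 ± 0.10 (adjusted p = 0.157), while the brighter one was at 0.17 ± 0.15 (adjusted p = 0.645). The brightest Ifit3 probe was at 0.33 ± 0.12 (ratio 1.26, adjusted p = 0.273). The 2 Ifit2 probes thus gave different estimates of one gene, and none of these differences passed the test. Without the 5 low-correlation arrays, 12 of 13 probes were positive (median 0.14), against 54.3% of all probes (median 0.01). The difference was then 0.30 for Rsad2, 0.23 for Ifit3, 0.02 for the brighter Ifit2 probe and -0.04 for Oasl2. With arrays weighted by their quality, Rsad2 passed at 0.32 ± 0.08 (adjusted p = 0.0412, limma), with 2.08% of all probes called in that fit. Without cage 6, the dimmer Ifit2 probe passed at 0.41 ± 0.09 (adjusted p = 0.0368, limma), with 0.891% of all probes called.

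In offspring of HF fed dams (HH against HL), the difference was again positive for all 13 member probes, with a median of 0.24 against 0.02 over all probes, of which 55.9% were positive. None of the 13 passed, whereas 0.512% of all probes did, and 2 reached an unadjusted p under 0.05, both of Ifit2, against 16.9% of all probes. The brighter Ifit2 probe was higher in HH by 0.52 ± 0.17 on the log2 scale (ratio 1.43, 95% interval 1.13 to 1.83, adjusted p = 0.168, limma), and the other by 0.38 ± 0.17 (adjusted p = 0.271). Ifit3 followed at 0.34 ± 0.20 (adjusted p = 0.372) and Oasl2 at 0.32 ± 0.18 (adjusted p = 0.349). Of the 10 HL animals, 3 gave low-correlation arrays. Without them 10 of 13 probes were positive (median 0.06), against 46.3% of all probes (median -0.01). The Ifit2 difference was then 0.26, the Ifit3 difference 0.06, the Oasl2 difference 0.16 and the Rsad2 difference -0.04 in place of 0.23. Without HH animal 5 it was 0.49 for Ifit2, 0.21 for Ifit3 and 0.03 for Irf7. Without those arrays and HH animal 5, a setting added after the data were seen, it was 0.24 for Ifit2, -0.07 for Ifit3, -0.05 for Rsad2 and -0.06 for Irf7.

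The adipocyte markers moved with the members in these 2 comparisons: 7 of 7 were positive, with a median log2 difference of 0.43 in LH against LL and 0.36 in HH against HL, and none was called. The endothelial markers were positive in 6 of 6 in both, with medians of 0.29 and 0.48. The macrophage markers were positive in 4 of 8 in LH against LL (median 0.01) and in 7 of 8 in HH against HL (median 0.47). The neutrophil markers were positive in 2 of 4 and 3 of 4 (medians 0.21 and 0.34). The T and NK cell markers were positive in 4 of 6 and 2 of 6 (medians 0.18 and -0.12). The testis markers had medians of -0.16 and -1.32. Without the low-correlation arrays, the medians in these 2 comparisons were 0.10 and 0.01 for the adipocyte markers, 0.13 and 0.17 for the endothelial markers, -0.18 and 0.08 for the macrophage markers and 0.69 and 0.05 for the testis markers. For the neutrophil markers the medians were then 0.13 and 0.20, and for the T and NK cell markers 0.18 and -0.10. The part of cell composition in the members' differences was not tested.

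Animals on different diets that shared a breeding cage allowed the post-weaning diet to be compared within cages. With the cage as a fixed term, both Ifit2 probes passed in HH against HL, at 0.86 ± 0.20 and 0.71 ± 0.19 on the log2 scale (adjusted p = 0.0393 and 0.0498, limma), in a fit that called 3.31% of all probes. Rsad2 was at 0.50 ± 0.17 (adjusted p = 0.0844). With cage means in place of animals, or with the cage as a random block, 0 member probes passed in HH against HL, and the brighter Ifit2 probe was at 0.57 ± 0.21 (adjusted p = 0.358) and 0.50 ± 0.17 (adjusted p = 0.187, limma). In LH against LL the same fit called 0 member probes and put Rsad2 at 0.15 ± 0.12 and the brighter Ifit2 probe at 0.18 ± 0.20. The cages that hold both diets among offspring of HF fed dams were 10, 20 and 23, and each of them held 1 of the 3 HL low-correlation arrays, so that 3 of the 6 HL animals of these cages gave such arrays, against 3 of 10 in the group. In the same fit without these arrays, added after the data were seen, 0 member probes passed, the brighter Ifit2 probe was at 0.46 ± 0.22 and Rsad2 at 0.06 ± 0.15 (adjusted p = 0.9996 for both, limma).

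**Figure D2:**
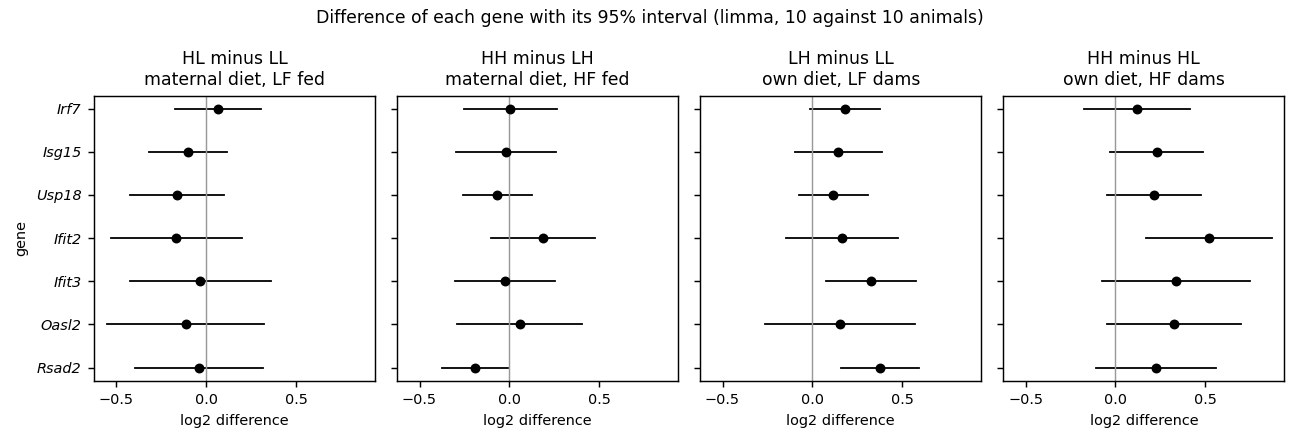
Log2 difference of each of the 7 genes (horizontal axis, 1 probe per gene) with its 95% interval in the 4 comparisons of 10 against 10 animals (limma). All 7 points lie to the right of 0 in both comparisons of the animals' own diet, and none of the 28 differences passed the adjusted threshold.

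The interaction, which asks whether the post-weaning difference depended on the maternal diet, called 0 of 13 member probes, beside 0% of all probes. None reached an unadjusted p under 0.05, against 4.36% of all. The largest estimate was that of the brighter Ifit2 probe, 0.35 ± 0.23 on the log2 scale (95% interval -0.11 to 0.82, adjusted p = 0.935, limma). The dimmer Ifit2 probe was at 0.04 ± 0.19, so that the 2 probes of this gene again gave different estimates. With array weights, Rsad2 was at -0.40 ± 0.13 (adjusted p = 0.0423) and the dimmest Usp18 probe at -0.39 ± 0.13 (adjusted p = 0.0407), in a fit that called 13.4% of all probes.

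Breeding cages were compared within the groups by an F test. None of the 13 member probes passed, beside 0% of all probes, and 2 reached an unadjusted p under 0.05, against 9.72% of all. These were Rsad2 (F = 2.98, adjusted p = 0.410) and the dimmer Ifit2 probe (F = 2.41, adjusted p = 0.477). By cage, the geometric mean of the members was highest in the LH animals of cage 14, at 457 and 528 units, and in the HH animals of cage 20, at 384 to 693 units. It was low in the HL animals of cage 23, at 244 to 357 units, while the HH animals of the same cage were at 363 to 495 units. The 1 HL animal of cage 20 was at 279 units, the LL animals of cage 8 at 267 to 399 and the HL animals of cage 10 at 286 and 444. The lowest animals of cages 8, 10, 20 and 23 gave low-correlation arrays.

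**Figure D3:**
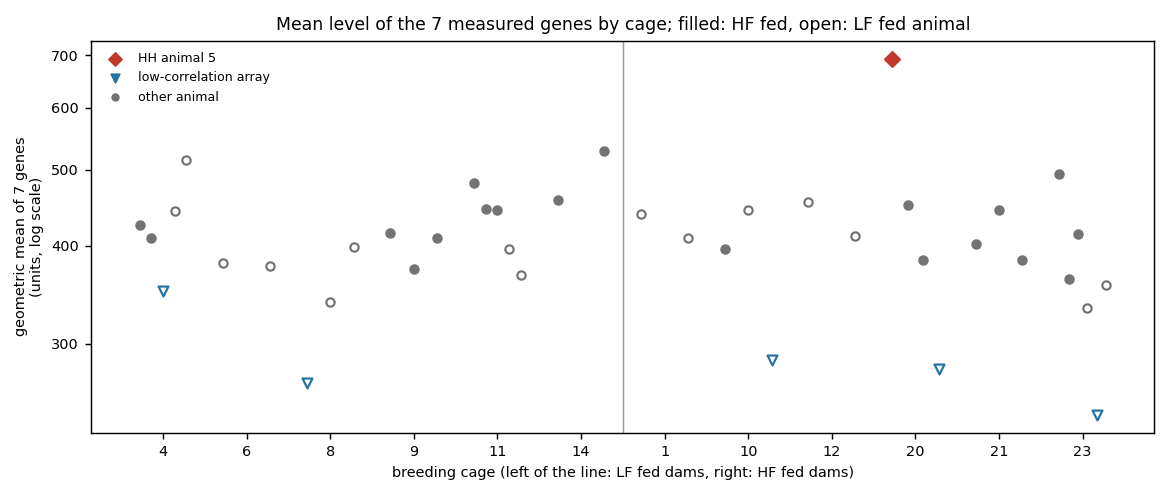
Geometric mean of the 7 measured genes (units, log scale) for each animal by breeding cage, with filled marks for HF fed and open marks for LF fed animals. In cage 20 HH animal 5 stands at 693 units and the 3 other animals at 279 to 451, and the 5 low-correlation arrays (blue triangles) are the lowest of their cages.

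HH animal 5 stood apart from the other animals, and it was singled out after its values were seen, so the following is a description without a test. It was the highest of the 40 on 10 of the 13 member probes, and its geometric mean of 693 units was followed by LH animal 2 at 528 and LL animal 6 at 514. Its array was not among those of low correlation (0.945). By gene, 5 of the 7 members were highest of the 40 in this animal, which was true of 6.47% of the 9797 genes. The brightest Ifit3 probe read 2124 units in it and 797 to 978 in the other 9 HH animals, a ratio of 2.26 to their median. The 2 other Ifit3 probes gave ratios of 2.03 and 1.85. All Ifit3 probes therefore set this animal apart to a similar degree.

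Isg15 read 439 units in HH animal 5 and 177 to 283 in the other HH animals (ratio 2.09 to their median). Irf7 read 294 and 131 to 214 (ratio 1.97). The brighter Oasl2 probe read 1978 units in HH animal 5 and 674 to 1475 in the others (ratio 1.91), but LL animal 6 was nearly as high, at 1946 units. The other Oasl2 probe read 201 units, the 2nd of the 40 (ratio 1.38). Usp18 read 493 and 252 to 342 (ratio 1.62). The antiviral effectors Ifit2 and Rsad2, like the dimmer Oasl2 probe, did not set the animal apart to the same degree. The brighter Ifit2 probe read 411 units, the 6th of 40 (ratio 1.19), and the other 432, the first (ratio 1.42), while Rsad2 read 703 units, the 9th (ratio 1.22). The dim Ifit1 probe was at 66.1 units, within the range of the other HH animals. Of its 3 cage mates, HH animal 6 had a geometric mean of 451 units, the 8th of the 40, with the highest value of the brighter Ifit2 probe (449 units). HH animal 7 was at 384 units and HL animal 8, a low-correlation array, at 279.

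The wider pathway was described in the same animal from lists of its genes. Of the 35 other interferon-stimulated genes past the filter, 29 were above the median of the other HH animals, against 49.7% of all genes. Of these 35 genes, 10 were highest of the 40, against 6.47% of all genes, and the median ratio was 1.33, against 0.999 over all genes. The largest ratios among them were those of Oas1g, an oligoadenylate synthetase (3.06), Ifitm3, which blocks viral entry (2.15), and the chemokine Cxcl10 (2.09). Of 9 interferon-gamma inducible GTPases, 7 were above that median (median ratio 1.37) and 2 were highest, Gbp3 (ratio 2.03) and Gbp7 (1.46), while Irgm1 was at 0.58. The negative regulators Socs3 and Pias1 were at 1.72 and 1.12. Of 15 genes that sense nucleic acid or induce interferon, 4 were highest (median ratio 1.08), among them the RNA sensor Tlr7 (1.98). Of the signalling genes, Stat2 was highest of the 40 (254 units against 146 to 224 in the other HH animals, ratio 1.42) and Irf9 the second (607 units, ratio 1.30), while Jak1 (ratio 0.62) and Jak2 (0.99) were not high, and the median ratio of the 5 genes was 1.08. The receptor chain Ifnar2 was the 5th (216 units, ratio 1.25), the interferon-gamma receptor chain Ifngr2 was the 36th (ratio 0.55), and the median ratio of the 5 receptor genes was 0.89. Irf1 was the 34th (ratio 0.82). None of the 4 ligand genes past the filter was highest (median ratio 0.90), and all 4 were dim, at 74.6 to 126 units. The Ifnar1 probe did not pass the filter.

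Macrophage markers were high in the same animal. Of 8 past the filter, 4 were highest of the 40, the lysozyme gene Lyz2 (16029 units against 6607 to 8233 in the other HH animals), the mannose receptor Mrc1 (ratio 2.43) and the complement genes C1qa (2.18) and C1qb (2.64). Their list level of 1956 units was the highest of the 40 animals, in a group whose median was 1220 units. The other 4 were not highest: Adgre1, the gene of F4/80, was the 11th (ratio 1.13), Cd163 the 12th, Cd14 the 4th and Clec7a the 28th. Of the adipocyte markers, 1 of 7 was highest, the fatty acid binding protein Fabp4 (ratio 4.58), and Adipoq, Lep and Pparg were between 0.79 and 0.81 of the other animals' median. Plin1 was at 1.055, Cidec at 0.956 and Retn at 0.983, and the median ratio of the 7 was 0.956. The median ratio was 1.05 for 6 T and NK cell markers, 0.85 for 2 B cell markers, 0.74 for 2 dendritic cell markers and 1.06 for 4 neutrophil markers, and none of these was highest. The testis list, at 79.0 units, was the lowest of the HH group. The part of macrophage content in the members' levels in this animal was not tested.

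**Figure D4:**
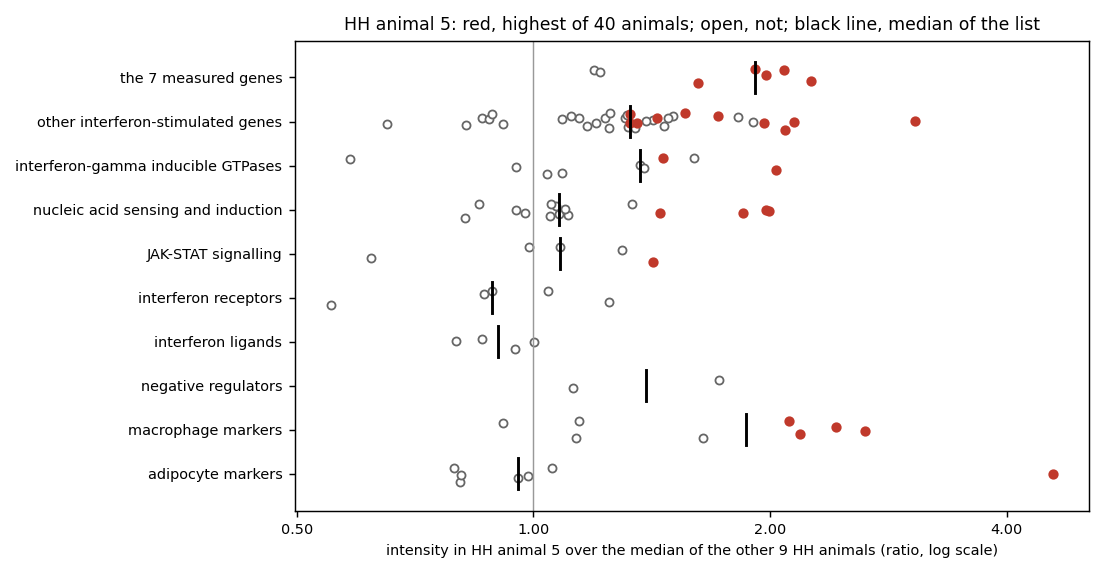
Ratio of the intensity in HH animal 5 to the median of the other 9 HH animals (horizontal axis, log scale) for each gene past the filter, by list, with genes highest of the 40 animals in red and the median of each list as a black line. The median is 1.91 for the 7 measured members, 1.33 for 35 other interferon-stimulated genes and 1.86 for 8 macrophage markers, and it lies below 1 for receptors, ligands and adipocyte markers.

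The members moved together across animals within the groups. Over the 21 pairs of the 7 genes, the Spearman correlation of the deviations from the group means was 0.23 to 0.64 (median 0.48, 40 arrays), against a median of 0.04 over pairs of all genes and a 90th percentile of 0.47. Without HH animal 5 the median was 0.44, without the 5 low-correlation arrays 0.42, and without both 0.36 (34 arrays). In these 3 settings it lay below the 90th percentile over all genes, which was 0.479, 0.424 and 0.428, and the median over all pairs was 0.02 to 0.04. These values describe arrays that share hybridisation and tissue composition, and they carry no test.

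The genes whose pattern was most like the members' mean log2 level were named by their Spearman correlation with it over the 40 arrays. Here the group means were not taken out, so these values include differences between groups and are not comparable with those of the pairs. They were Gbp7 (Spearman 0.89), Phf11d (0.85), Gbp3 (0.84), the Src family kinase Fyn (0.82), Tmem106a (0.80), the monocyte chemokine Ccl2 (0.79), the transcription factor Creb5 (0.78) and the lectin receptor Cd209a (0.78). The median over all other genes was 0.14. On the 35 arrays without low correlation, these 8 genes had values of 0.68 to 0.84, and the median over all genes was 0.04. Gbp7, Gbp3 and Phf11d were on the pathway lists, and the other 5 were not. The order depended on the arrays: over the 35 arrays the first 8 were Gbp7, Phf11d, Gbp3, Fyn, Ddx58, Oasl1, Gpr153 and Oas1g, of which 6 were on the pathway lists. Ccl2 read 708 units in HH animal 5, the second of the 40, against a median of 113 over all animals.

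Between the groups, the rest of the pathway was compared gene by gene in the same fits. No gene of the ligand, receptor, JAK-STAT, sensing, GTPase, other interferon-stimulated or negative regulator lists passed the adjusted threshold in any comparison, in the interaction or between cages, and neither did any gene of the cell type marker lists. Of the 35 other interferon-stimulated genes, 27 had a positive difference in LH against LL (median 0.14 on the log2 scale) and 31 in HH against HL (median 0.23). In the comparisons of maternal diet, 8 of them were positive in HL against LL (median -0.08) and 14 in HH against LH (median -0.03). The interferon-gamma inducible GTPases, which act against intracellular pathogens, had positive differences in 8 of 9 in LH against LL (median 0.35) and 9 of 9 in HH against HL (median 0.30), and in 0 of 9 and 2 of 9 in the comparisons of maternal diet. The median over all probes lay between -0.02 and 0.03 in the 4 comparisons, and 43 to 57.2% of all probes were positive. Without the low-correlation arrays, 24 and 22 of the 35 other interferon-stimulated genes were positive in LH against LL and HH against HL (medians 0.08 and 0.05), as were 7 and 5 of the 9 GTPases (medians 0.21 and 0.03), and 14 of 35 and 5 of 9 in HL against LL. Of all probes, 54.3% were then positive in LH against LL, 46.3% in HH against HL and 52.8% in HL against LL. No gene of any list passed in these fits.

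Genes upstream of the members did not pass either. In LH against LL, Stat2 was at 0.13 ± 0.07 on the log2 scale (adjusted p = 0.437, limma) and in HH against HL at 0.20 ± 0.10 (adjusted p = 0.316). Irf9, its partner, was at 0.09 ± 0.07 and -0.03 ± 0.10, and Ifnar2 at 0.13 ± 0.11 and 0.17 ± 0.11. Irf1, a transcription factor induced chiefly by interferon-gamma, was at 0.25 ± 0.12 in LH against LL (adjusted p = 0.394) and at 0.04 ± 0.14 in HH against HL. The 5 receptor genes past the filter had medians of -0.23 and 0.17 in these 2 comparisons, and the 15 sensing genes 0.08 and 0.04. The kinase gene Jak1 was at -0.30 ± 0.45 and 0.86 ± 0.32 (adjusted p = 0.791 and 0.220), and Ifngr2 at -0.38 ± 0.18 and 0.14 ± 0.18. Without the low-correlation arrays, the difference in LH against LL and in HH against HL was 0.14 and 0.16 for Stat2, 0.10 and 0.01 for Irf9, 0.09 and 0.03 for Ifnar2, and 0.11 and -0.05 for Irf1. For Jak1 it was -0.66 and 0.745, and for Ifngr2 -0.39 and 0.21. The medians were then -0.02 and 0.06 for the receptor genes and 0.03 and -0.04 for the sensing genes.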

How the data were processed

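RNA of the gonadal fat pad of 40 mice was hybridised to MouseRef-8 v2.0 beadchips (Illumina), 1 array per animal. The authors deposited linear intensity values, read with BeadStudio (version not given in the sources used here) and quantile-normalized over the 40 arrays, which fixes each array's distribution (array medians 98.7 to 99.1 units). No probe-wise detection p was used. Of 25697 probes, 23978 had 1 gene symbol in the platform annotation, and 1719 were unnamed.

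Log2 intensity was fitted with limma 3.58.1 (R 4.3.3, eBayes with an intensity trend), each comparison on its own 20 arrays, and the interaction and the cage test on 40. A gene with several probes was represented by the one with the highest mean, and every member probe was tested. Member levels of an animal are geometric means over the 7 genes. The fits were tested on simulated data. The members and gene lists were chosen with earlier results of these data known. Named genes were the members, Ifnar1, Ifnar2, Stat2, Irf9 and Irf1, pathway genes called in a comparison, and the 8 genes most like the members' mean; another item of that rule is not reported here. Other genes were named after their values were seen. Groups, cages and diets came from the labels. The number of arrays limits the precision. Alternatives changed the samples fitted, the cage term, the filter, the scaling, the background, the variance model and the arrays used.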

Additional observations from a re-analysis of the deposited data

Results flagged for a closer look

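Values at one end of a group were looked for with Dixon's ratio, the gap to the nearest animal over the range of the 10 animals, at a critical value of 0.466. Of 56 groups of member probes, 10 had such a value, and chance marks about 1 in 20 groups. The probes of a gene are not independent. HH animal 5 was marked as the highest of HH on 7 probes: Isg15 at 439 units (next 283), the 3 Ifit3 probes at 787, 793 and 2124 units (next 449, 470 and 978), and the 3 Usp18 probes at 382, 189 and 493 units (next 249, 137 and 342). LL animal 1, a low-correlation array, was the lowest of LL on the brightest Ifit3 probe, at 442 units (next 664). LH animal 1 was the highest of LH on the dimmer Ifit2 probe, at 397 units (next 313). HL animal 7 was the highest of HL on the Ifit1 probe, at 86.3 units (next 70.2), with this probe not above background on any array.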

How the results depend on the processing

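No paired analysis was possible because the replicate numbers only give the order in which animals are listed; the breeding cage, which the labels give, served as the block instead. Member probes were called under 4 alternatives: 1 in LH against LL with array weights, 2 in HH against HL with the cage as a fixed block, 2 in the interaction with array weights, and 0 to 1 when each cage was left out of LH against LL. The count was 0 in the other 80 combinations of comparison and alternative. The following differences (log2 scale, 1 probe per gene) changed sign. With array weights, HL against LL was 0.159 for Ifit3 and 0.156 for Rsad2, HH against LH was -0.052 for Irf7, LH against LL was -0.038 for Ifit2 and -0.046 for Oasl2, HH against HL was -0.045 for Irf7, -0.049 for Ifit3 and -0.073 for Rsad2, and the interaction was -0.035 for Isg15, -0.31 for Ifit3 and -0.10 for Usp18. Without low-correlation arrays, HL against LL was 0.14 for Ifit3 and 0.15 for Rsad2, LH against LL was -0.036 for Oasl2, HH against HL was -0.036 for Rsad2, and the interaction was -0.17 for Ifit3 and -0.058 for Usp18. Irf7 in HH against LH was -0.018 with cage means and -0.021 with background subtracted. With the cage as a fixed block, the interaction was 0.20 for Irf7 and 0.35 for Rsad2. With settings added after the data were seen, HH against HL was -0.0068 for Ifit3 with the cage as a fixed block and without low-correlation arrays, and -0.056 for Irf7, -0.066 for Ifit3 and -0.054 for Rsad2 without those arrays and HH animal 5. Leaving out each animal or cage in turn gave ranges that included 0. In HL against LL these were -0.19 to 0.088 for Ifit3, -0.17 to 0.071 for Rsad2, -0.20 to 0.023 for Isg15 and -0.23 to 0.031 for Oasl2. In HH against LH they were -0.11 to 0.11 for Irf7, -0.12 to 0.056 for Isg15, -0.17 to 0.061 for Ifit3 and -0.12 to 0.18 for Oasl2. In the interaction they were -0.18 to 0.041 for Irf7, -0.014 to 0.18 for Isg15, -0.22 to 0.16 for Ifit3, -0.0050 to 0.29 for Oasl2 and -0.032 to 0.16 for Usp18. The cause of these shifts was not tested.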
